A study of Mus musculus with 9 samples.

Results

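Integrins and cadherins, the main receptor families by which animal cells hold on to the extracellular matrix and to each other, were followed in F9 cells through 52 of the 12422 probe sets tested, which report on 35 of 8251 named genes. A probe set is the group of short oligonucleotides that measures one transcript on the array. Members were chosen by symbol alone, though with earlier results of these data known. Each has a single symbol that is an integrin alpha or beta subunit (31 probe sets, 19 genes) or that begins with Cdh or Pcdh (21 probe sets, 16 genes). They comprised 21 probe sets of 12 alpha subunits, 10 of 7 beta subunits, 9 of 5 type I cadherins, 6 of 6 type II cadherins, 3 of 3 other cadherins and 3 of 2 protocadherins. Itgb2l, a beta-2-like subunit, was counted, while Itgb1bp1, a binding protein, was not. A further 8 probe sets match several genes of the Pcdha cluster at once and were not counted either; none of them passed the test used here in any comparison.

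F9 is an established mouse embryonal carcinoma line, a tumour stem cell that moves toward primitive endoderm when given retinoic acid (RA). Per the labels, one group of F9 cells received the ethanol vehicle in culture medium, one received RA at 0.5 µM and one received trichostatin A (TSA), an inhibitor of histone deacetylases, at 0.07 µM, each for 24 h and each measured on 3 arrays. The labels name no other difference between the groups, and all come from this one tumour line. The labels do not say whether the 3 replicates were separate cultures, and the p-values therefore measure only how far these samples scatter, possibly for technical reasons.

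Each integrin is a pair of one alpha and one beta chain, and the pairing sets the ligand: Itgb1 joins many alpha chains to bind laminin, collagen and fibronectin, Itgav joins several beta chains to bind vitronectin and fibronectin, and Itgb2 and Itgb7 serve mainly leukocytes. Cadherins bind cadherins on the neighbouring cell in the presence of calcium, and the type I members are tied through catenins to actin. In the early embryo Cdh1 (E-cadherin) holds the epiblast and its epithelial derivatives together, and laminin-binding integrins anchor endoderm to the basement membrane.

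All values are ratios: the deposited number for a probe set on an array is its signal over the mean of the 3 vehicle arrays, so the vehicle arrays average 1 in every probe set. The brightness behind a ratio is not recoverable, levels cannot be compared between genes, and a ratio does not show whether a transcript is present at all. Differences between groups are given on the scale log2(ratio + 0.05), which understates changes of low values.

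Neither compound moved any integrin or cadherin probe set past the test. With limma fitted across all probe sets and Benjamini-Hochberg adjustment, 0 of 52 changed in RA against vehicle, where 1.36% of all probe sets did, and 0 of 52 in TSA against vehicle, where 3.48% did. In RA against TSA 1 of 52 passed, a probe set of the leukocyte integrin chain Itgb7, against 3.91% of all probe sets. At an unadjusted p under 0.05 there were 8 of 52 with RA (12.7% of all probe sets), 11 of 52 with TSA (19.6%), and 9 of 52 when RA was set against TSA (17.1%), so the members' shares of 15.4%, 21.2% and 17.3% lay near the background. The 3 arrays of one group lay wholly above or below the 3 of the other in 10 of 52 with RA (17.0% of all probe sets), 12 of 52 with TSA (26.3%) and 13 of 52 between RA and TSA (27.3%). Of the RA members at an unadjusted p under 0.05, 6 were cadherins (28.6% of the 21) and 2 integrins (6.45% of the 31), and of the TSA members 4 and 7.

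The absence of calls did not come with narrow intervals. The median change of the 52 members was -0.11 in RA and -0.12 in TSA, close to the medians of all probe sets, -0.12 and -0.17. Centring the arrays on their medians moved the median of all probe sets to 0.035 and 0.029 and that of the members to 0.051 and 0.076, so no direction is read from the members as a group. The 95% interval of the difference lay within 2-fold each way, 1 unit of the log2(ratio + 0.05) scale, in only 15 of 52 members with RA (46.5% of all probe sets), 17 with TSA (41.0%) and 17 between RA and TSA (43.5%). Among cadherins 3 of 21 were bounded in this way for RA and 6 of 21 for TSA, and among integrins 12 and 11 of 31. For the remainder the interval reaches past 2-fold in at least one direction.

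**Figure D1:**
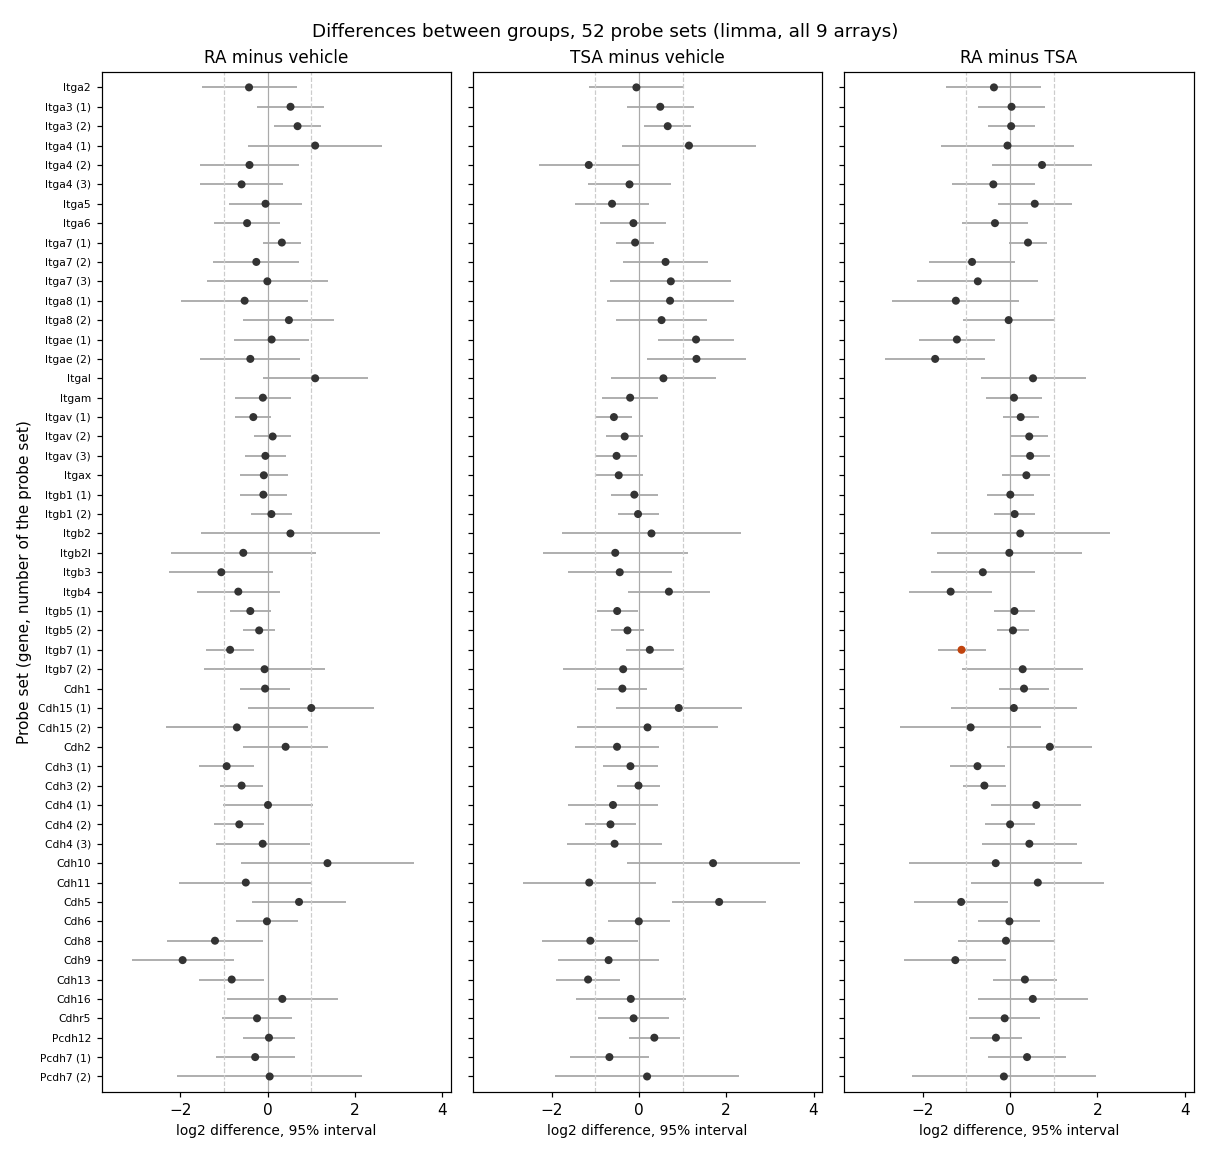
Differences of group means on the log2(ratio + 0.05) scale for the 52 probe sets, with 95% intervals from limma over all 9 arrays; dashed lines mark 2-fold, numbers in brackets number the probe sets of a gene, and the filled red point is the only one with an adjusted p under 0.05. That point is the first Itgb7 probe set in RA minus TSA, and the members' medians of -0.11 and -0.12 against vehicle lie near 0.

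The scatter among replicates was widest in vehicle, for the members as for all probe sets. The highest vehicle array exceeded the lowest by more than 3-fold in 18 of 52 members (34.6%), against 18.4% of all probe sets. In RA this held for 12 members (23.1%, all probe sets 14.9%) and in TSA for 5 (9.62%, all probe sets 12.2%). The widest was Itgb2, the shared beta chain of leukocyte integrins, at 0.135, 0.981 and 1.88 in vehicle, a 14-fold range. The tightest was the second Itgav probe set, at 1, 1.02 and 0.984.

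Itgb7 carried the one difference that passed. Its first probe set (100906_at) read 0.87, 1.25 and 0.88 on the vehicle arrays, 0.43, 0.584 and 0.559 on the RA arrays and 1.18, 0.949 and 1.47 on the TSA arrays. All RA arrays lay below all vehicle and TSA arrays, while the TSA and vehicle ranges overlapped. The mean ratio was 0.524 ± 0.0829 in RA and 1.2 ± 0.261 in TSA (SD, n = 3), a log2 difference of -1.11 (SE 0.24, limma adjusted p = 0.0417). Against vehicle the RA difference was -0.86 (95% interval -1.41 to -0.31, adjusted p = 0.152 by limma) and did not pass, and the TSA difference was 0.25.

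Of 9 fits that each left out 1 array, the Itgb7 call held in 1, the fit without vehicle replicate 3. Omitting vehicle replicate 1 or 2 gave limma adjusted p-values of 0.0505 or 0.0525. Omitting one of the RA arrays gave 0.143 (replicate 1), 0.0929 (replicate 2) or 0.0921 (replicate 3) by the same limma test, and omitting one of the TSA arrays 0.123, 0.0758 or 0.14 in that order. The log2 difference stayed between -1.26 and -0.96 in these fits. The second Itgb7 probe set (162193_f_at) did not share it: it read 0.43, 1.89 and 0.685 in vehicle, 0.39, 1.58 and 0.768 in RA and 0.861, 0.719 and 0.41 in TSA, with a difference of 0.29 between RA and TSA. With both probe sets averaged the difference was -0.41 (limma adjusted p = 0.651).

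The upstream sequence of Itgb7, as the member with the one call, is shown beside that of Itgb1, the broadly used beta chain whose group means all lay near its vehicle level. Both are the 250 bases before the RefSeq start site in GRCm38.p6, 5′ to 3′ on the gene's strand, chr15:102231936-102232185 on the minus strand for Itgb7 and chr8:128685404-128685653 on the plus strand for Itgb1, and capitals mark CG dinucleotides.
Itgb7: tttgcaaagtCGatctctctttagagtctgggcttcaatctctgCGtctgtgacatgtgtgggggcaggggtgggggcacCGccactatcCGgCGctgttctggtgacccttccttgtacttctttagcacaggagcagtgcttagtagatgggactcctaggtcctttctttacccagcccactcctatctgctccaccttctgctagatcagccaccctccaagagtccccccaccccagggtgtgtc
Itgb1: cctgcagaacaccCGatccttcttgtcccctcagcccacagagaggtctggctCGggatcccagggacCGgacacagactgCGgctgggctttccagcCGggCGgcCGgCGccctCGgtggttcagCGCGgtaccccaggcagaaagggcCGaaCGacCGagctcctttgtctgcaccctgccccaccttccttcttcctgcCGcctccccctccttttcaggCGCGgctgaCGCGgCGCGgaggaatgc
The Itgb7 window holds 5 CG and the Itgb1 window 21, against a median of 6 over all 32851 windows in the RefSeq table. The hormone receptor core AGGTCA, on either strand, is in neither window and in 14% of all windows, and GGGCGG, a GC box, occurs once in the Itgb1 window and in 32.7% of all windows. RefSeq windows were found for 19 of the 35 genes.

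Itgb1, the partner of most matrix-binding alpha chains, was bounded within 2-fold in both treatments. Its first probe set (100123_f_at) read 1.17, 1.06 and 0.776 in vehicle, 1.14, 0.786 and 0.859 in RA and 0.973, 1.04 and 0.753 in TSA. The second (100124_r_at) read 1.15, 1.06 and 0.789 in vehicle, 1.17, 1.04 and 0.953 in RA and 1.06, 1.03 and 0.85 in TSA. The groups overlapped throughout. The RA difference was -0.10 (95% interval -0.64 to 0.44) and 0.085 (-0.38 to 0.55), and the TSA difference -0.10 (-0.65 to 0.44) and -0.02 (-0.49 to 0.45). Smaller changes than 2-fold lie inside these intervals.

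Itgb5, which pairs with Itgav as a vitronectin receptor, was lower on all TSA arrays than on any vehicle array in both probe sets without passing. The first (100601_at) read 0.98, 1.15 and 0.87 in vehicle, 0.763, 0.595 and 0.896 in RA and 0.651, 0.692 and 0.727 in TSA, and the second (162218_f_at) 0.999, 0.974 and 1.03 in vehicle, 0.858, 0.804 and 0.943 in RA and 0.844, 0.799 and 0.835 in TSA. In RA only the second had all arrays below vehicle. The TSA differences were -0.50 and -0.26 (limma adjusted p = 0.228 and 0.419), and those of RA -0.40 and -0.20. With array medians centred they were -0.30 and -0.062 in TSA and -0.24 and -0.039 in RA.

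Itgb4, the hemidesmosome beta chain that joins Itga6 at the basement membrane, read 1.71, 0.476 and 0.811 in vehicle, 0.422, 0.519 and 0.682 in RA and 1.19, 1.43 and 1.76 in TSA. Every RA array lay below every TSA array, while the vehicle arrays reached into both. The RA minus TSA difference of -1.36 had a limma adjusted p of 0.128, which became 0.0415 without vehicle replicate 1 and 0.0385 from the 6 arrays compared. Of 9 fits that each left out 1 array it passed in 1. Leaving out an RA or TSA array gave limma adjusted p of 0.174 to 0.314. Itgb4 was singled out after its values were seen.

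The other beta chains were too scattered to place. Itgb3, the beta chain of the platelet fibrinogen receptor and a partner of Itgav, read 1.26, 1.4 and 0.341 in vehicle, 0.5, 0.406 and 0.275 in RA and 0.367, 0.81 and 0.781 in TSA, with vehicle replicate 3 level with the treated arrays. Itgb2 and Itgb2l had RA intervals of -1.53 to 2.57 and -2.22 to 1.10 and TSA intervals of -1.76 to 2.34 and -2.20 to 1.12.

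Itgae, the alpha chain that pairs with Itgb7 and binds Cdh1, had the largest TSA differences among integrins, alike in its separate probe sets. The first (161730_f_at) read 1.47, 0.822 and 0.71 in vehicle, 1.33, 1.29 and 0.606 in RA and 1.98, 3.2 and 2.27 in TSA. The second (93961_at) read 1.44, 1.23 and 0.338 in vehicle, 0.453, 0.699 and 0.805 in RA and 1.67, 3 and 2.13 in TSA. In each, all TSA arrays exceeded all vehicle and all RA arrays, and the vehicle and RA arrays overlapped. The TSA minus vehicle differences were 1.31 and 1.32 (limma adjusted p = 0.107 and 0.198), and the RA minus TSA differences -1.22 and -1.72 (limma adjusted p = 0.139 and 0.114). None passed. The second probe set passed in RA against TSA without vehicle replicate 3, at a limma adjusted p of 0.0189, and without both arrays of high 18S signal, at 0.0326. Of 9 fits that each left out 1 array it passed in 1. Leaving out an RA or TSA array gave limma adjusted p of 0.175 to 0.339, and quantile normalisation 0.477.

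Itga4, the other partner of Itgb7, went in no common direction. Its TSA differences were 1.15, -1.15 and -0.22 and its RA differences 1.09, -0.42 and -0.60 over 3 probe sets, and none passed. One of these probe sets (102655_at) read 1.7, 0.186 and 1.12 on the vehicle arrays, with replicate 2 far below every other array. Madcam1 and Vcam1, ligands of these integrins on other cells, had 5 probe sets between them and none passed in any comparison.

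The remaining leukocyte alpha chains were Itgal, Itgam and Itgax, partners of Itgb2. Itgal read 0.472, 1.66 and 0.868 in vehicle, 1.47, 1.59 and 3.1 in RA and 0.74, 1.47 and 2.14 in TSA, with overlap throughout. Itgam had differences of -0.11 in RA and -0.20 in TSA and Itgax of -0.089 and -0.46, and none passed. Of 13 probe sets for 8 leukocyte markers, Ptprc and Spi1 among them, 0 passed limma's adjusted test in any comparison (0, 0 and 1 at an unadjusted p under 0.05 in RA, TSA and RA against TSA), and the median ratio of the list was 0.845 to 1.31 on the vehicle arrays, 0.839 to 1.01 in RA and 0.775 to 0.923 in TSA. Of all probe sets, 12.7%, 19.6% and 17.1% had an unadjusted p under 0.05 in the same comparisons. Because ratios do not show presence, whether leukocyte transcripts were in the cultures was not tested.

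**Figure D2:**
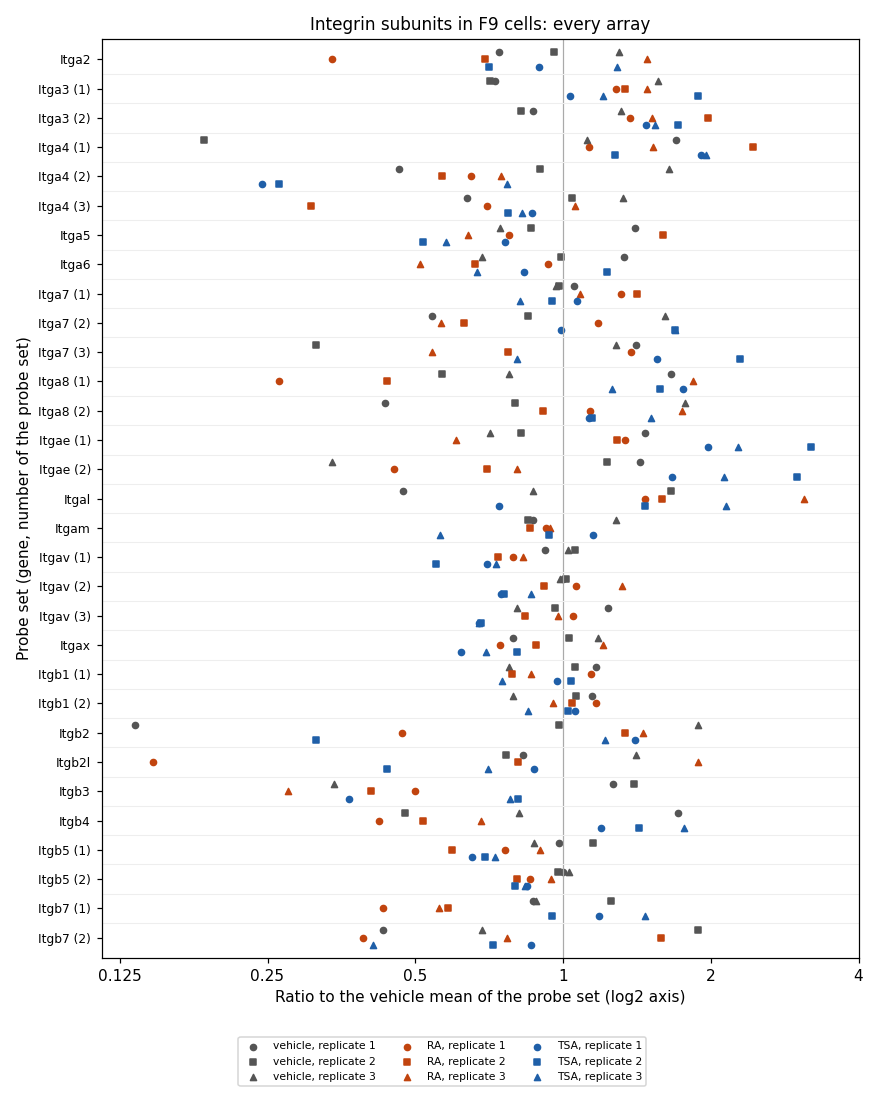
Ratio to the vehicle mean on each of the 9 arrays for the 31 integrin probe sets, on a log2 axis; colours mark the group, symbols the replicate and the grey line a ratio of 1. In both Itgae probe sets the TSA arrays (blue, 1.98, 3.2 and 2.27 in the first) lie above all others, and for the first Itgb7 probe set the RA arrays (red) lie below all others.

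Among matrix-binding alpha chains, Itgav was measured with little scatter. On the TSA arrays its first probe set read 0.699, 0.551 and 0.728, against 0.919, 1.06 and 1.02 in vehicle. The second read 0.748, 0.759 and 0.861 against 1, 1.02 and 0.984, and the third 0.673, 0.681 and 0.675 against 1.23, 0.961 and 0.806. In all 3 every TSA array lay below every vehicle array. The TSA differences were -0.57, -0.33 and -0.51, with limma adjusted p of 0.13, 0.386 and 0.211, and with the 3 averaged -0.47 (adjusted p = 0.163). The median of all probe sets in TSA was itself -0.17, and after centring on array medians the Itgav differences were -0.37, -0.13 and -0.31. RA gave -0.33, 0.11 and -0.053, with only the first probe set separate from vehicle at 0.79, 0.738 and 0.827.

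Itga3, a laminin-binding chain, had higher means with each compound. Its second probe set (104211_at) read 0.867, 0.821 and 1.31 in vehicle, 1.37, 1.98 and 1.52 in RA and 1.48, 1.71 and 1.54 in TSA, and the first (104210_at) 0.728, 0.71 and 1.56 in vehicle, 1.28, 1.34 and 1.48 in RA and 1.03, 1.88 and 1.21 in TSA. The treated arrays of the second lay above all vehicle arrays, whereas vehicle replicate 3 overlapped them in the first. The second differed by 0.68 in RA (limma adjusted p = 0.261) and 0.66 in TSA (0.174), and the first by 0.52 and 0.49. The RA and TSA comparisons share the vehicle arrays, so their likeness is not separate evidence.

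Itga6, the laminin receptor chain of stem cells and endoderm, read 1.33, 0.988 and 0.683 in vehicle, 0.933, 0.662 and 0.512 in RA and 0.832, 1.23 and 0.667 in TSA. Itga5, the main fibronectin receptor chain, read 1.4, 0.859 and 0.743 in vehicle, 0.776, 1.6 and 0.639 in RA and 0.762, 0.519 and 0.578 in TSA. The Itga6 groups overlapped, and so did those of Itga5 in RA, while its TSA arrays overlapped the vehicle arrays only through TSA replicate 1. Itga6 differed from vehicle by -0.47 in RA (95% interval -1.23 to 0.28) and -0.13 in TSA, and Itga5 by -0.05 (-0.89 to 0.79) and -0.62.

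Itga7, another laminin-binding chain, has 3 probe sets that disagree. The first (160086_at) read 1.05, 0.98 and 0.965 in vehicle and 1.31, 1.42 and 1.08 in RA, with the arrays separate and a difference of 0.32 (limma adjusted p = 0.528). The others differed from vehicle by -0.26 and -0.0082 in RA. In TSA the 3 gave -0.087, 0.61 and 0.73. Itga8, which binds nephronectin in developing kidney, gave -0.53 and 0.49 in RA and 0.71 and 0.52 in TSA, and the collagen-binding Itga2 gave -0.43 and -0.058. None of these passed.

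Cdh1 showed no change beyond its spread. It read 0.72, 1.13 and 1.15 in vehicle, 0.824, 1.07 and 0.931 in RA and 0.84, 0.576 and 0.84 in TSA, and the groups overlapped. The RA difference was -0.06 (95% interval -0.63 to 0.51) and the TSA difference -0.38 (-0.95 to 0.19). Cdh2 (N-cadherin), the type I cadherin of mesoderm and neural tissue, read 1.76, 0.681 and 0.56 in vehicle, 1.51, 1.24 and 0.889 in RA and 0.83, 0.595 and 0.452 in TSA. Its intervals were wide, -0.56 to 1.38 for RA and -1.47 to 0.47 for TSA. RA and TSA arrays of Cdh2 did not overlap, at a difference of 0.91 (limma adjusted p = 0.324).

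Cdh3 (P-cadherin), a type I cadherin of placenta and epithelia, was lower on every RA array than on any vehicle or TSA array, in each of its probe sets. The first (100409_at) read 0.645, 1.42 and 0.934 in vehicle, 0.513, 0.408 and 0.502 in RA and 0.846, 0.749 and 0.888 in TSA. The second (162097_r_at) read 0.82, 1.11 and 1.07 in vehicle, 0.603, 0.545 and 0.789 in RA and 1.01, 0.849 and 1.11 in TSA. The RA differences were -0.94 and -0.60 against vehicle and -0.75 and -0.59 against TSA. With limma adjusted p of 0.171, 0.293, 0.212 and 0.212 none passed, and with the probe sets averaged the RA difference was -0.77 (adjusted p = 0.175).

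Cdh4 (R-cadherin), known from retina and brain, had 3 probe sets. The second (95371_g_at) read 0.873, 0.999 and 1.13 in vehicle, 0.454, 0.721 and 0.707 in RA and 0.469, 0.751 and 0.659 in TSA, with all treated arrays below all vehicle arrays and a difference of -0.65 with RA and -0.65 with TSA (limma adjusted p = 0.329 and 0.203). The others differed from vehicle by 0.0065 and -0.12 in RA and -0.59 and -0.56 in TSA, with overlap. Cdh15, the muscle cadherin, was split between its probe sets, 1.00 and -0.71 in RA and 0.91 and 0.20 in TSA.

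**Figure D3:**
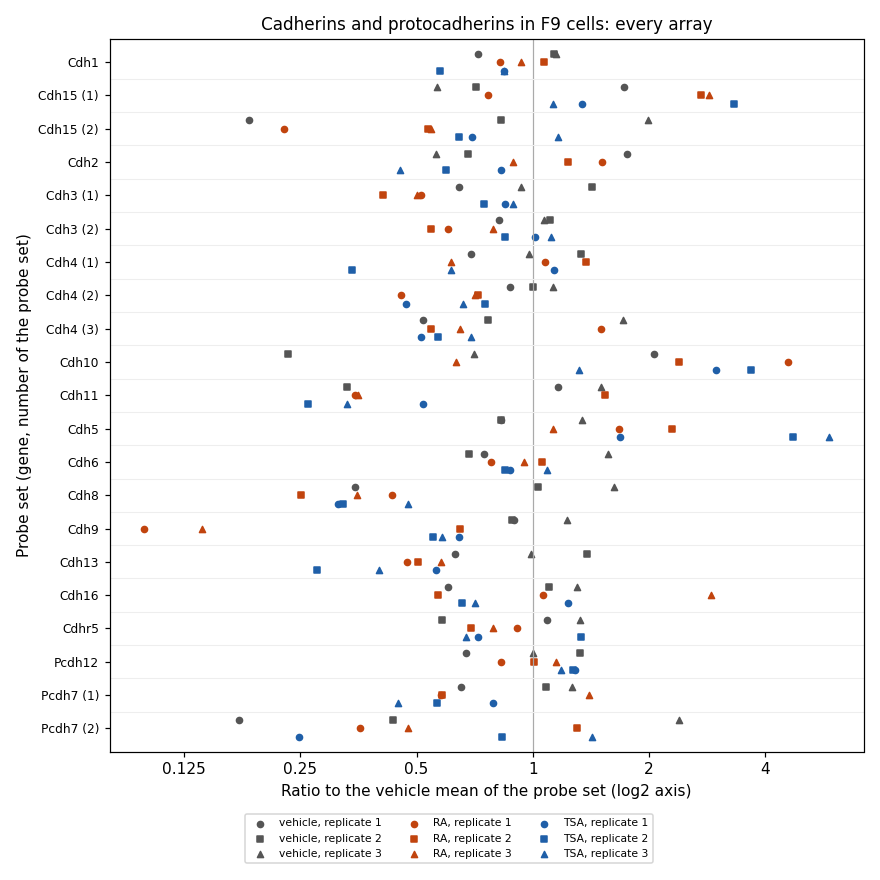
Ratio to the vehicle mean on each array for the 21 cadherin and protocadherin probe sets, on a log2 axis, with colours for the group and symbols for the replicate. Cdh5 shows TSA arrays at 1.69, 4.72 and 5.87, above all vehicle arrays, Cdh9 RA arrays at 0.0983, 0.647 and 0.139, below them, and both Cdh3 rows show the RA arrays lowest.

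The type II cadherins held the largest differences from vehicle of the whole set. Cdh5 (VE-cadherin), the cadherin of endothelium, read 0.83, 0.827 and 1.34 in vehicle, 1.67, 2.3 and 1.13 in RA and 1.69, 4.72 and 5.87 in TSA. All TSA arrays exceeded all vehicle arrays, with replicate 1 well below the others. Its TSA difference of 1.84 (95% interval 0.76 to 2.92) had a limma adjusted p of 0.0775, the smallest of the 52 against vehicle. Of 9 fits that each left out 1 array it passed in 1, without TSA replicate 1 (2.38, limma adjusted p = 0.026). Without TSA replicate 3 the difference was 1.49 (limma adjusted p = 0.2), and with quantile normalisation 1.55 (limma adjusted p = 0.154). Of 7 probe sets for 5 endothelial markers 0 passed limma's adjusted test in any comparison, and 0, 0 and 1 had an unadjusted p under 0.05 in RA, TSA and RA against TSA. In TSA they differed from vehicle by 1.02 (Kdr), 1.24 (Tek), 0.44 and -0.40 (Vwf), 0.11 and 0.004 (Tie1) and -0.24 (Pecam1), with a median of 0.11, and the median ratio of the endothelial list was 0.626 to 1.35 on the vehicle arrays and 1.01 to 1.2 in TSA. Of all probe sets, 12.7%, 19.6% and 17.1% had an unadjusted p under 0.05 in RA, TSA and RA against TSA. The part of endothelial transcripts in the Cdh5 value was not tested.

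Cdh9, a cadherin of nervous system synapses, had the largest difference below vehicle in RA. It read 0.895, 0.881 and 1.22 in vehicle, 0.0983, 0.647 and 0.139 in RA and 0.645, 0.552 and 0.584 in TSA. Every treated array lay below every vehicle array, and RA replicate 2 lay at the level of the TSA arrays while the other RA arrays were far lower. The RA difference of -1.95 (95% interval -3.11 to -0.78) had a limma adjusted p of 0.132, and without RA replicate 2 it was -2.63 with 0.0101. Without that array RA also passed against TSA, at -1.94 (limma adjusted p = 0.0161). Of 9 fits that each left out 1 array, RA passed in 1 against vehicle and in 1 against TSA. Without RA replicate 1 the RA difference from vehicle was -1.52 (limma adjusted p = 0.309), and with quantile normalisation -1.65 (limma adjusted p = 0.289). The TSA difference was -0.69.

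Cdh8, also neural, read 0.346, 1.03 and 1.62 in vehicle, 0.433, 0.251 and 0.351 in RA and 0.312, 0.323 and 0.475 in TSA. Vehicle replicate 1 lay among the treated arrays and the other vehicle arrays above them. The differences of -1.21 in RA and -1.11 in TSA did not pass (limma adjusted p = 0.344 and 0.25). Without vehicle replicate 1 they were -1.80 and -1.70 with limma adjusted p of 0.0493 and 0.0429. Without vehicle replicate 3, the highest vehicle array, they were -0.76 and -0.66 (limma adjusted p = 0.422 and 0.428). Each passed in 1 of 9 fits that left out 1 array. Cdh8 was described here after its values were seen.

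Cdh10 and Cdh11 were measured too loosely to place. Cdh10 read 2.06, 0.232 and 0.706 in vehicle, 4.6, 2.4 and 0.633 in RA and 2.98, 3.67 and 1.32 in TSA, with a 95% interval of -0.61 to 3.35 for RA and -0.28 to 3.68 for TSA. Cdh11, a mesenchymal cadherin, read 1.16, 0.331 and 1.51 in vehicle, 0.347, 1.54 and 0.352 in RA and 0.519, 0.262 and 0.33 in TSA, where vehicle replicate 2 already sat with the low TSA arrays. Cdh6, a kidney cadherin, gave -0.018 in RA (95% interval -0.73 to 0.69) and -0.0023 in TSA.

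Cdh13 (T-cadherin), which is held by a lipid anchor and lacks the catenin-binding tail, was lower on all treated arrays. It read 0.627, 1.38 and 0.991 in vehicle, 0.471, 0.504 and 0.579 in RA and 0.562, 0.276 and 0.399 in TSA. The TSA difference was -1.16 (limma adjusted p = 0.0939) and the RA difference -0.82 (adjusted p = 0.336), neither past the threshold. Cdh16, a kidney cadherin, read 1.07, 0.568 and 2.89 in RA, with replicate 3 far above the others and a difference of 0.33 from vehicle, and Cdhr5, of the intestinal brush border, differed from vehicle by -0.24 in RA and -0.12 in TSA.

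The protocadherins, which act mainly in the nervous system and lack the catenin tie of type I cadherins, also gave no call. Pcdh12, of endothelium and placenta, read 0.671, 1.33 and 1 in vehicle, 0.827, 1.01 and 1.15 in RA and 1.29, 1.27 and 1.18 in TSA, with RA and TSA arrays separate and a difference of -0.32 (limma adjusted p = 0.606). Pcdh7 differed from vehicle by -0.29 and 0.045 in RA and -0.68 and 0.19 in TSA in its separate probe sets, the second of which read 0.173, 0.434 and 2.39 in vehicle.

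Probe sets of one gene often disagreed. Of 13 genes with several probe sets, which hold 30 of the 52, all probe sets of the gene had the same sign in 4 with RA, 9 with TSA and 7 between RA and TSA. The median distance between a gene's highest and lowest change was 0.49, 0.24 and 0.53 on the log2 scale. With probe sets averaged, 0 of 35 genes passed limma's adjusted test in each of the 3 comparisons. In Affymetrix naming the letters f and r before the final suffix mark probe sets that may also match related sequences or that had relaxed design rules. Among members they mark both Itgb1 probe sets, the first of Itgae and the second of Itgav, Itgb5, Itgb7, Itga7, Itga8, Cdh3 and Cdh15. Likeness or closeness to vehicle in these carries that limit. The passing probe sets of Dsc2, Pkp2 and Cd151 described next are marked too.

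Genes that work beside these receptors were described from lists, by counts of probe sets and with no test over the list. The lists were chosen with earlier results of these data known. A share above that of all probe sets is therefore description only. The cytoplasmic partners of cadherins, the catenins, plakoglobin, nectins and vinculin among them, gave 0 calls in 20 probe sets of 12 genes in each of the 3 comparisons by limma. Ctnnb1 differed from vehicle by -0.23 in RA and 0.10 in TSA. The known repressors of Cdh1 gave 0 in 8 probe sets of 7 genes, and other cadherin superfamily genes (Ret, Celsr1 and Celsr2) 0 in 4 of 3. At an unadjusted p under 0.05, in the order RA, TSA and RA against TSA, the partners gave 2, 1 and 3, the repressors 0, 1 and 2 and the superfamily genes 0, 1 and 1. Of all probe sets 12.7%, 19.6% and 17.1% did so, and 1.36%, 3.48% and 3.91% passed the adjusted test. Snai1 differed from vehicle by 3.08 in TSA (limma adjusted p = 0.0825).

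Desmosomes are spot-like junctions in which desmosomal cadherins (Dsc, Dsg) bind keratin filaments through plakophilins (Pkp) and desmoplakin (Dsp). Of 16 probe sets of 10 such genes, 2 passed as higher in RA and 3 in TSA, none passed as lower than vehicle, and 3 were lower in RA than in TSA. These shares of 12.5%, 18.8% and 18.8% stand beside 1.36%, 3.48% and 3.91% of all probe sets. At an unadjusted p under 0.05 there were 6, 9 and 8 of the 16, beside 12.7%, 19.6% and 17.1% of all probe sets. Not all of the 6 and 9 were rises: Dsg2 (104480_at) lay at -0.67 in RA, and Dsc1 and Dsp (161892_r_at) at -1.59 and -1.87 in TSA. The rest of them lay above vehicle, with the other Dsg2 probe set at 1.37 in RA and 1.33 in TSA. The 9 type I cadherin probe sets gave 0 calls, and 3, 1 and 2 of them had an unadjusted p under 0.05 in the same order. With 9 probe sets, 0 calls does not by itself set them apart from all probe sets. Dsc2 rose in each treatment in 1 of its probe sets: the first (103506_f_at) read 1.72, 0.802 and 0.474 in vehicle, 8.47, 12.5 and 9.16 in RA and 3.97, 5.33 and 5.1 in TSA, a change of 3.43 in RA (SE 0.41, limma adjusted p = 0.00717) and 2.38 in TSA (adjusted p = 0.0202). Its second probe set (97768_at) read 7.14, 5.44 and 7.91 in RA without passing (adjusted p = 0.0818), and differed from vehicle by 0.12 in TSA. With both averaged the RA rise of 3.16 passed (limma adjusted p = 0.0107) and the TSA difference of 1.25 did not (adjusted p = 0.15).

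Dsp rose in RA through its second probe set (94247_at), which read 1.5, 0.972 and 0.531 in vehicle, 7.99, 4.97 and 4.14 in RA and 2.37, 3.81 and 2.44 in TSA. Its change was 2.51 in RA (limma adjusted p = 0.0233), and the first probe set differed from vehicle by -0.059. The average of both was 1.22 in RA and did not pass (limma adjusted p = 0.225), and in TSA the probe sets lay apart, at 1.55 and -1.87. Pkp3 rose in TSA, from 0.835, 0.965 and 1.2 to 8.27, 12.7 and 11.6 (3.37, limma adjusted p = 0.00182), and read 3.76, 2.48 and 1.62 in RA. Pkp2 rose in TSA in its second probe set (104338_r_at), 2.39, 3.47 and 3.89 against 0.74, 1.3 and 0.961 in vehicle, a change of 1.66 (limma adjusted p = 0.0335). Its other probe sets differed from vehicle by 1.89 and 1.86 in TSA without passing, and RA gave -0.48 in the second. With the Pkp2 probe sets averaged the TSA rise of 1.80 passed (limma adjusted p = 0.00402). So did the averaged difference of -2.03 between RA and TSA (limma adjusted p = 0.00206). Of 9 fits that each left out 1 array, the calls of Dsc2 in RA and Pkp3 in TSA held in 9, those of Dsc2 in TSA and Dsp in RA in 5 and that of Pkp2 in TSA in 2. Lower in RA than in TSA were Pkp2 in its first and second probe sets (-2.33 and -2.14) and Pkp3 (-2.09), held in 2, 8 and 8 of those fits. A test of desmosomal against type I genes was not made, so the difference between the lists is a description.

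**Figure D4:**
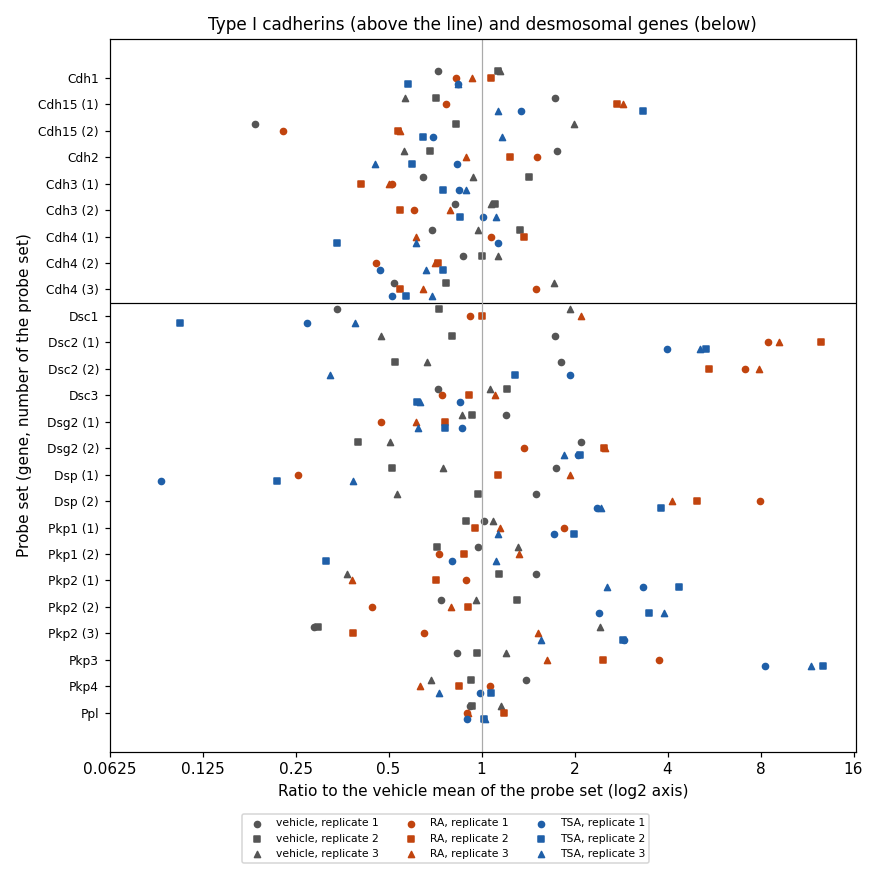
Ratio to the vehicle mean on each array for the 9 type I cadherin probe sets (above the line) and the 16 probe sets of desmosomal cadherins and plaque proteins (below), on a log2 axis. Dsc2 (1) lies at 8.47, 12.5 and 9.16 in RA and Pkp3 at 8.27, 12.7 and 11.6 in TSA, while both Cdh3 rows show their RA arrays below the vehicle arrays.

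On the cytoplasmic side of integrins, 33 probe sets of 21 adhesion complex genes gave 1 rise in RA and 1 in TSA, each 3.03%, beside 1.36% and 3.48% of all probe sets. At an unadjusted p under 0.05 there were 4 in RA, 7 in TSA and 6 in RA against TSA, beside 12.7%, 19.6% and 17.1% of all probe sets. The adjusted calls in RA against TSA made up 12.1% of the list, beside 3.91%. Tgfb1i1 (Hic-5), a paxillin relative in focal adhesions, read 1.29, 0.779 and 0.932 in vehicle, 5.82, 5.52 and 5.64 in RA and 1.5, 1.68 and 1.77 in TSA, and rose by 2.47 with RA (limma adjusted p = 0.0016). Ptk2b, a kinase related to focal adhesion kinase, rose by 1.01 with TSA (limma adjusted p = 0.0281), from 1.11, 1.05 and 0.836 to 2.09, 2.19 and 1.88, and this call held in 4 of 9 fits without 1 array. Between treatments Tgfb1i1, the integrin activator Tln1 (1.22) and the tetraspanin Cd151 (0.93) were higher in RA and Ptk2b was lower, with Tln1, Cd151 and Ptk2b each held in 3 of 9 such fits. For Tln1 and Cd151 this was 1 probe set each: the other Tln1 probe sets lay at 0.30 and 0.62, the other Cd151 probe sets at -0.13, 0.16 and 0.72, and the averages, 0.71 and 0.42, did not pass (limma adjusted p = 0.0936 and 0.368). Itgb1bp1, which binds the Itgb1 tail, differed from vehicle by 0.063, -0.051 and 0.10 in RA and 0.00032, 0.32 and 0.13 in TSA over its probe sets.

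Integrin ligands gave 0 calls in RA and 4 rises in TSA among 27 probe sets of 18 genes by limma, and 5, 9 and 8 at an unadjusted p under 0.05 in RA, TSA and RA against TSA. The 4 are 14.8% of the list, beside 3.48% of all probe sets, and the calls in RA against TSA are 14.8%, beside 3.91%. The unadjusted counts stand beside 12.7%, 19.6% and 17.1% of all probe sets. Icam1, the ligand of leukocyte integrins, read 1.23, 0.999 and 0.772 in vehicle, 0.485, 0.908 and 0.619 in RA and 3.45, 6.78 and 4.25 in TSA and rose by 2.18 (limma adjusted p = 0.012), a call that held in 9 of 9 fits without 1 array. One Col1a1 probe set, of the fibrillar collagen chain, rose by 4.31 (held in 9 of 9), while the other differed from vehicle by 0.59 and did not pass. With both averaged the TSA rise of 2.45 passed (limma adjusted p = 0.0172). The averaged difference of -2.88 between RA and TSA passed too (limma adjusted p = 0.00712). The laminin alpha chain Lama1 rose by 1.11 in TSA, a call that held in 1 of 9 such fits. Of Lama5, another laminin alpha chain, one probe set rose by 1.15 (held in 2 of 9) while the other lay at -0.54, and the average of both was 0.31 (limma adjusted p = 0.486). Lama1 differed from vehicle by 1.13 in RA, with arrays at 2.3, 1.78 and 2.68, and did not pass in this fit of single probe sets (limma adjusted p = 0.0646). Against TSA, RA was higher for Col4a1 (1.59, held in 2 of 9) and lower for Col1a1 (-4.81), Icam1 (-2.74) and one Lama5 probe set (-1.17, held in 3 of 9), whose average with the other did not pass (-0.94, limma adjusted p = 0.0555). With quantile normalisation 7 of the 22 calls in the desmosomal, adhesion complex and ligand lists passed: Pkp3 in TSA, Tgfb1i1 in RA and between treatments, and Icam1 and Col1a1 in TSA and between treatments. With array medians centred all 22 passed.

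These comparisons sit on arrays that differed in technical controls. The median 18S rRNA control ratio reached 2.4 for vehicle replicate 3, followed by RA replicate 3 with 0.961 and vehicle replicate 1 with 0.538, and was at most 0.073 elsewhere. On the TSA arrays it was 0.0336, 0.0427 and 0.0531, below every vehicle array. The median ratio of the spike-in controls was 0.822, 0.89 and 1.23 in vehicle and 0.614, 0.413 and 1.03 in RA. In TSA it was 0.563, 0.599 and 0.726, again below every vehicle array. The part of these group differences in the comparisons was not tested. Without vehicle replicate 3 and RA replicate 3, 0 of 52 members passed limma's adjusted test in RA and 0 in TSA, and in RA against TSA Itgae passed and Itgb7 did not. Among markers of the undifferentiated state 3 of 9 probe sets fell in RA (Zfp42, Tdgf1 and Utf1) and 2 in TSA (Tdgf1 and Utf1). At an unadjusted p under 0.05 there were 8 and 5 of the 9. Of 13 endoderm probe sets 2 rose in RA (Gata6 and Sox7) and 0 changed in TSA, with 3 and 3 at an unadjusted p under 0.05. Of all probe sets 1.36% in RA and 3.48% in TSA were called, and 12.7% and 19.6% had an unadjusted p under 0.05. Of 13 probe sets for fibroblast or feeder markers, Col1a1 and Thy1 rose in TSA and 0 changed in RA by limma. At an unadjusted p under 0.05 there were 4 in RA and 5 in TSA. The median ratio of the fibroblast list was 0.579 to 1.36 on the vehicle arrays, 0.777 to 0.847 in RA and 1.03 to 1.25 in TSA, and its part in the Col1a1 value was not tested.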

How the data were processed

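RNA of 9 F9 samples was hybridised to Affymetrix arrays at a core facility after DNase treatment and column purification, per the labels. The deposited values are linear ratios: the mean of the 3 vehicle arrays was 1, within 1e-06, for each of 12488 probe sets. The vehicle samples' labels name GeneSpring for data analysis, and how scanner signal became a ratio is otherwise not stated there. The 66 control probe sets were left out. Of the remaining 12422, the platform annotation gave 10833 a single symbol, 396 several and 1193 none. A RefSeq table (GRCm38.p6), matched by Entrez ID, changed 0 member symbols. No brightness or depth is known, and the number of arrays limits the precision.

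Values were analysed as log2(ratio + 0.05), each probe set on its own, with limma 3.58.1 (R 4.3.3) over all 9 arrays without a variance trend or filter, 6 residual degrees of freedom and Benjamini-Hochberg adjustment over all 12422. An adjusted p under 0.05 counted as changed. Named members were those that passed, other probe sets of their genes, a set of 9 familiar genes and, per treatment, up to 3 non-overlapping members each way. Itgb4, Cdh8 and others described by range were added after their values were seen. Members and lists were chosen with earlier results of these data known. Alternatives were other pseudocounts, scaling, a filter, averaged probe sets, 6-array fits, a replicate block, a variance trend, array weights and left-out arrays; for the neighbour lists and their genes they were added after seeing the data.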

Additional observations from a re-analysis of the deposited data

How the results depend on the processing

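The count of members that passed limma's adjusted test, 0 in RA against vehicle, 0 in TSA against vehicle and 1 in RA against TSA, was the same in all 3 comparisons with pseudocounts of 0.01 or 0.1, with array medians centred, with the lowest 30% of probe sets left out, with a variance trend and without both arrays of highest 18S signal, where the 1 member was Itgae and not Itgb7. The lowest 30% were taken by mean ratio, and as the vehicle mean is always 1, that removes probe sets low in RA or TSA. Cdh8, Cdh9 and Cdh13 were among those removed, so the unchanged count does not speak for them. Lower calls over all probe sets went from 53 to 7 in RA and from 158 to 9 in TSA. In RA against TSA the count of members was 0 with quantile normalisation and 0 with the probe sets of a gene averaged. It was 2 with the 6 arrays compared only, Itgae and Itgb4, where Itgb7 did not pass (limma adjusted p = 0.0551). Array weights gave 13, 25 and 2, but their estimation did not converge and put a weight of 21.4 on vehicle replicate 2 against 0.247 to 1.68 on the other arrays; all probe sets then gave 2196, 4494 and 943 calls in place of 169, 432 and 486. Leaving out 1 array at a time gave 0 to 1, 0 to 1 and 0 to 2 members. The members that passed were Cdh8 (RA and TSA) and Itgb4 without vehicle replicate 1, Cdh9 without RA replicate 2, Cdh5 without TSA replicate 1, and Itgb7 and Itgae without vehicle replicate 3. The cause of these moves was not tested.

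A replicate block, which treats arrays of one number as paired, gave 0, 0 and 0 members, the Itgb7 difference then having a limma adjusted p of 0.0667. Same-numbered arrays deviated together with correlations from -0.0317 to 0.289. For replicate 3 they were 0.289 (RA and vehicle), 0.237 (TSA and vehicle) and 0.19 (RA and TSA). Correlations of differently numbered arrays were not computed, so these values do not settle whether the numbers pair the samples. The main fit did not pair them. Over all probe sets, quantile normalisation gave 87, 108 and 152 calls, and the fits of 6 arrays 61, 168 and 480. The variance trend gave 111 in RA, and leaving out 1 array 54 to 209, 107 to 494 and 167 to 624. Calls against vehicle split 116 higher and 53 lower in RA and 274 and 158 in TSA, which became 148 and 37, and 379 and 82, with array medians centred. Of 78 comparisons of named members, 25 turned sign in at least 1 setting, 0 of them a call.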
